A study of Homo sapiens with 3 samples.

Results

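Gene expression in HCT116 cells treated with control siRNA was described from a single microarray. HCT116, an established cell line from a human colon cancer, grows as an epithelial monolayer and carries activated RAS and Wnt signaling together with defective DNA mismatch repair. The cells had received 10 nM of a non-targeting siRNA for 48 h, and 400 ng of total RNA was amplified, labeled with Cy3 and hybridized to a SurePrint G3 array. The series holds 3 such arrays, 1 each for control siRNA, siRNA #7 and siRNA #8, where the latter siRNAs silence HOXA5 short RNA. The paper describes HOXA5 short RNA as a long non-coding RNA that starts between HOXA7 and HOXA6 and lacks exon 1 of HOXA5. The array of the control culture, 1 of the 3, is described alone, and no arrays were compared. With 1 culture on 1 array, no value has a replicate check, no test was possible and no p-value is given.

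The members were the genes of the array design that could be named. Outlier-flagged spots were dropped, replicate spots of each probe were averaged, and each gene was read from its brightest probe that the scanner software called well above background. Of 21613 named genes, 12929 (59.8%) had such a probe and were ranked by its intensity. These are called detected genes. Among protein-coding genes, 11885 of 18374 (64.7%) were detected. An upper band was set at percentile 75 of the detected genes and a lower band below percentile 25, with a middle band between them. The 3233 genes of the upper band made up 15.0% of all named genes, and these shares are the background for each list below.

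A cultured colon cancer line keeps only part of the program of its tissue of origin. The colon epithelium is renewed from stem cells at the crypt base that depend on Wnt signaling, and its daughter cells become absorptive colonocytes, mucus-secreting goblet cells or hormone-secreting enteroendocrine cells as they move toward the surface. Caudal-type homeobox factors set intestinal identity, keratins and cadherin junctions give the cells their epithelial form, and growing tumor cells commonly rely on glycolysis, glutamine, lipid synthesis and nucleotide synthesis. Lists of genes for each of these functions were therefore read on the array, 57 lists with 1159 named genes in all.

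The detected genes spanned 13.59 on the log2 scale of intensity, from 6.79 to 83940, with a median of 165. The lower band ended at 45.6 and the upper band began at 600. Probes that were not well above background had a median intensity of 1.61 and reached 10.6 at most, and the dimmest probe well above background had 6.67, so the calls overlapped only in that narrow range. Over all 21613 named genes, detected or not, the median intensity was 26.2. The array held 62976 spots, no spot was saturated, and 20473 of the 50597 gene probes with a value (40.5%) were well above background.

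**Figure D1:**
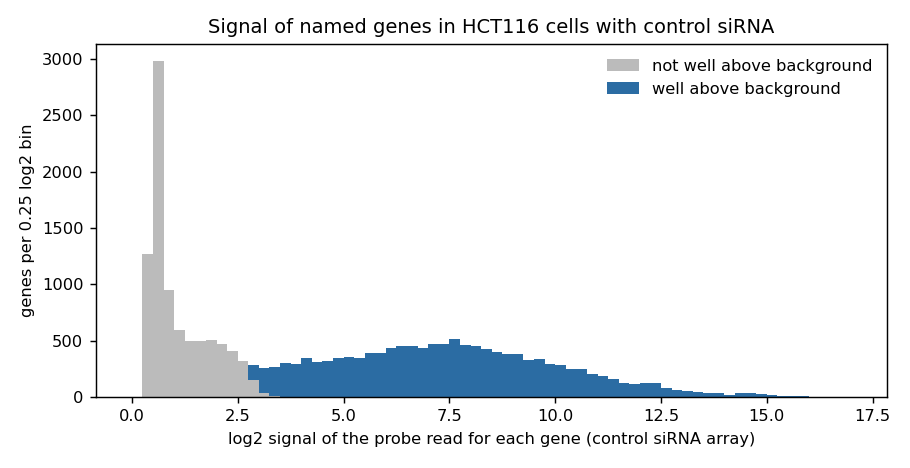
The histogram plots the log2 intensity of the probe read for each of the 21613 named genes on the control siRNA array, with the number of genes per bin on the vertical axis. Genes not well above background (grey) pile up below about 10.6 in intensity, and the 12929 detected genes (blue) spread over 13.59 log2 units above them.

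The error of 1 spot was small beside this range. For 605 probes printed 10 times each and well above background, the pooled SD of the log2 intensity between spots was 0.18, with a median of 0.18 in the dimmest 25% and 0.09 in the brightest 25% of them. Different probes of the same gene disagreed far more. In 3157 genes with at least 2 probes above background, the brightest and dimmest of these probes lay a median of 2.26 log2 units apart (4.77-fold), and 55.5% of these genes had probes more than 4-fold apart. A further 15392 genes had 1 probe, where such a spread cannot be seen. A single level is therefore given as an intensity of a probe with its percentile among the detected genes, and only broad bands were read, namely upper, middle, lower and not well above background. Neighbouring ranks do not differ beyond this spread. Values of dimmer probes are printed for some genes only.

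The brightest genes were those of protein synthesis. Of the 20 brightest genes, 13 encode proteins of the cytosolic ribosome, and so do 48 of the 100 brightest. RPL13, a protein of the large ribosomal subunit, was the brightest with an intensity of 83940, followed by the small non-coding RNA SNAR-A3 with 72288 and the ribosomal RNA gene RNA28SN5 with 64242. RPL6 (62019), SNAR-B2 (60485) and RPS2 (60242) came next. Further ribosomal protein genes among the 20, namely RPL41, RPLP0, RPS21, RPS27, RPL35, RPS13, RPS19, RPL7A and RPS16, lay between 42505 and 50228. EEF1A1, which delivers aminoacyl-tRNA to the ribosome, had 50413, although the dimmest of its 5 probes had 1720. Only 3 of the 20 brightest genes were outside translation and non-coding RNA. XRCC6, the Ku70 subunit that binds broken DNA ends, had an intensity of 50466 from 1 spot. JPT1, a microtubule-associated protein gene, had 46502 (SD 0.10 in log2 over 10 spots), with 7390 for its other probe. GSTP1, a glutathione transferase that conjugates electrophiles, had 44636 (SD 0.06 in log2 over 10 spots). Ribosomal protein, SNAR and ribosomal RNA genes have near-identical copies, and how far one probe also reads the copies was not tested.

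Detected shares differed with the base composition of the promoter. CpG dinucleotides are rare in most of the genome but frequent in the promoters of widely used genes, and their frequency relative to the content of C and G is the observed to expected ratio. RefSeq promoters (GRCh38.p14, 250 bases before to 50 bases after the start) were matched to 14755 of the 18374 protein-coding genes. In the decile of these genes with the lowest ratio 23.2% were detected, against 44.1% in the third decile, 76.5% in the fifth and 86.8% in the decile with the highest ratio. The share in the upper band went from 2.98% to 28.7% over the same range. The median ratio was 0.41 in genes not well above background, 0.78 in the lower band, 0.85 in the middle band and 0.87 in the upper band. The medians thus differed more between undetected and detected genes than among the bands of detected genes. The motif TATAAA, read on the strand of the gene from 45 to 16 bases before the start, was present in 3.69% of all these promoters, in 6.94% of those of undetected genes, 1.27% in the middle band and 4.95% in the brightest decile of the detected genes. These shares describe promoters of 1 cell line and no test was made on them.

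**Figure D2:**
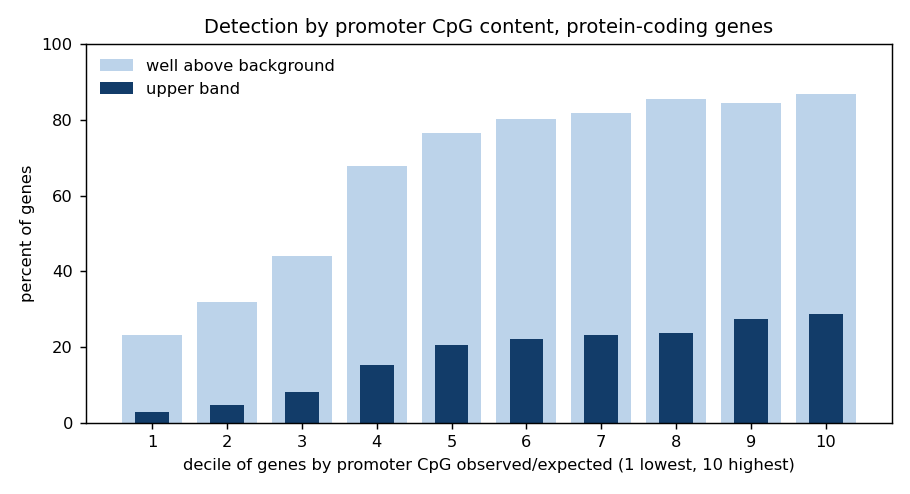
Bars give the percentage of protein-coding genes that were detected (light) and that lay in the upper band (dark), for deciles of 14755 genes ordered by the CpG observed to expected ratio of the promoter. Detection went from 23.2% in the lowest decile to 86.8% in the highest, with most of the increase below the fifth decile.

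Promoters of 6 list members show both sides of this pattern and its exceptions, and they were chosen after the values were seen. Each sequence is the 250 bases before the RefSeq start, 5′ to 3′ on the strand of the gene, with CpG dinucleotides in capitals. CDX2 (chr13:27969316-27969565, minus strand, ratio 0.84) and GSTP1 (chr11:67583562-67583811, plus strand, ratio 0.88) have ratios above the median of 0.78 over all these promoters and were detected.
CDX2: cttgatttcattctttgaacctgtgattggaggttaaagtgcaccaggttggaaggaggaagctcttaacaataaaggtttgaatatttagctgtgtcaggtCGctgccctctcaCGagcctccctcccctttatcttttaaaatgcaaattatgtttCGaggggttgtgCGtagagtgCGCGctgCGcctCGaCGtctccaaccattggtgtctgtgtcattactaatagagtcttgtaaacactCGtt
GSTP1: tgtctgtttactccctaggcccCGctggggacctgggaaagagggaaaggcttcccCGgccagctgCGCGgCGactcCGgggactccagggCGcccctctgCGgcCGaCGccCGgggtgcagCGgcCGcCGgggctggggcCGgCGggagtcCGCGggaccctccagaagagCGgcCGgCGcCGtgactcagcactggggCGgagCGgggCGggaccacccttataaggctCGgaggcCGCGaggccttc
KRT20 (chr17:40885243-40885492, minus strand, ratio 0.14) and CEACAM5 (chr19:41708376-41708625, plus strand, ratio 0.10) are CpG-poor and were not well above background. Both are markers of differentiated colon epithelium.
KRT20: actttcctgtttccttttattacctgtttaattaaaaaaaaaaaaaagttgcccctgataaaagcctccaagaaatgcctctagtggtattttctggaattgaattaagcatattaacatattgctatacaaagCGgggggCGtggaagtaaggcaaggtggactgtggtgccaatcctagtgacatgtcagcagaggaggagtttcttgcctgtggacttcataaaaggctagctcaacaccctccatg
CEACAM5: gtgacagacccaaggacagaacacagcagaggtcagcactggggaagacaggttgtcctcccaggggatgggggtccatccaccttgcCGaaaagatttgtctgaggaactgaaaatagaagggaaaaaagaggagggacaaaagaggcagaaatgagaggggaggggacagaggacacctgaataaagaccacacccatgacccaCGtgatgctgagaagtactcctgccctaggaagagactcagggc
CLDN4 (chr7:73830746-73830995, plus strand, ratio 0.19) and CYP2W1 (chr7:982931-983180, plus strand, ratio 0.39) have few CpG dinucleotides for their content of C and G and were nevertheless in the upper band.
CLDN4: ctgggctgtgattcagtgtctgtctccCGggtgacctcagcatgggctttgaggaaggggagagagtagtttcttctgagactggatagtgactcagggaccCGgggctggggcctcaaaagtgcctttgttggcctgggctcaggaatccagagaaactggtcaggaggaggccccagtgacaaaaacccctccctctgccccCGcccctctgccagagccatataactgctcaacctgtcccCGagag
CYP2W1: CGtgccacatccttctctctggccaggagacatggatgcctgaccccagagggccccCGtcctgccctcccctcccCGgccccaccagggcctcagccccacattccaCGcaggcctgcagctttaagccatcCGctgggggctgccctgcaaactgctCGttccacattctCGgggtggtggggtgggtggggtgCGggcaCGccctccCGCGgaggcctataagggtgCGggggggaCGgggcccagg
GSTP1 held 28 CpG dinucleotides in the 250 bases shown and CDX2 held 10, against 2 each in KRT20 and CEACAM5. CLDN4 held 4 and CYP2W1 held 13. DNA methylation was not measured here.

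The cells had the structural genes of an epithelium and few of those of a mature colonocyte. Of 10 defining markers of colon epithelium, 7 were detected. These were the keratins KRT19 (26442, percentile 99.5), KRT18 (17992, percentile 98.9) and KRT8 (6742, percentile 97.0), the adhesion molecule EPCAM (4653, percentile 95.2), the cadherin CDH1 (325, percentile 64.3, SD 0.10 in log2 over 10 spots), and the homeobox factors CDX2 (270, percentile 60.6) and CDX1 (21.2, percentile 13.4). CDX1 rests on 1 of 2 probes, with 1.49 for the other. The 3 probes of KRT8 read 6742, 229 and 10.4, and the mean of their logs would place it at percentile 65.1. The other 3 markers were not well above background, namely KRT20 (2.39), the microvillus protein gene VIL1 (1.59) and CEACAM5 (3.14). Each was read by 1 probe. In RNA from a whole culture, a low level in every cell and a high level in a few cells cannot be told apart.

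Epithelial junction genes were detected almost throughout. Of 26 genes of adhesion and junctions, 25 (96.2%) were detected and 10 were in the upper band, and the median intensity over all 26 was 255. CLDN4, a claudin of the tight junction, was the brightest (10244, percentile 98.1), followed by EPCAM and the plakophilin PKP3 (2876, percentile 92.7). CLDN15 was the dimmest detected (14.1) and CLDN1 was the only one not well above background (1.72). Without spots in the first 25 array columns, of 164 in all, 6 of these genes in place of 10 had an upper-band signal, because the only probes of CLDN4, JUP, CLDN3 and CTNNA1 lie there. Among 17 keratins, 9 were detected and 5 were in the upper band. The simple-epithelial pair KRT8 and KRT18 and their partner KRT19 were among these, and so was KRT10, a keratin of stratified epidermis named after its value was seen (3344, percentile 93.6). KRT13, of stratified epithelia, was the dimmest detected (6.90), and KRT5 (1.67), KRT6A (1.58) and KRT14 (5.07), also of stratified epithelia, were not well above background. KRT81, a hair keratin named after its value was seen (1028), has a near-identical relative, and how far its probe reads that gene was not tested.

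Intestinal transcription factors were detected about as often as genes at large. Of 24 such factors, 14 (58.3%) were detected, against 59.8% of all named genes and 64.7% of protein-coding genes. Only PITX1, a hindlimb and epithelial homeobox factor, was in the upper band (1242, percentile 84.9). Its other probe had 153, and with the mean of the probes none of these factors was in the upper band. MYB (356, percentile 65.9), which maintains progenitors, and the ETS factor EHF (325, percentile 64.3) followed. CDX1 was the dimmest detected. HNF4A (1.47) and HNF4G (1.56), nuclear factors that drive enterocyte and liver genes, were both not well above background. HNF4A was read by 1 probe, and whether that probe reads all HNF4A transcripts was not tested. GATA4 (2.73), GATA5 (1.60) and FOXA2 (1.69) were not either, and SOX2, a foregut factor, had 4.16.

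The genes of mature colon cells were largely undetected. Of 24 genes of absorptive colonocytes, 3 (12.5%) were detected and none was in the upper band. CA2, a cytosolic carbonic anhydrase, had 481 (percentile 71.1), the sulfate transporter SLC26A2 had 181 and the peptidase DPP4 had 38.2. The chloride exchanger SLC26A3 (1.55), the fatty acid-binding protein gene FABP1 (1.41), the guanylins GUCA2A (2.17) and GUCA2B (1.38) and the carbonic anhydrases CA1 (2.86) and CA4 (1.36) were not well above background. The surface glycoprotein genes CEACAM1 (5.67) and CEACAM7 (4.11) were not either.

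Genes of secretory lineages had no member in the upper band. Among 23 goblet and mucus genes, 9 were detected and none was in the upper band. The brightest were the membrane mucin MUC4 (85.0, with all 4 probes above background), REP15 (76.4) and FCGBP (56.0). MUC6 was the dimmest detected (15.0). The goblet genes TFF3 (1.71), SPINK4 (5.83), AGR2 (1.57), ZG16 (1.69), CLCA1 (1.58) and the secretory regulators ATOH1 (1.69) and SPDEF (8.10) were not well above background. MUC2, the main secreted mucin of the colon, named after its value was seen, had 18.8 on 1 of 4 probes. Of 19 enteroendocrine genes, 4 were detected, all in the lower band, with NEUROG3, a proendocrine factor, the brightest (28.9). Chromogranin A (CHGA, 1.36), SYP (1.40) and NEUROD1 (1.36) were not well above background. Of 12 Paneth and tuft cell genes, only the taste-signaling channel TRPM5 was detected (9.37), and the defensins DEFA5 (1.42) and DEFA6 (1.73) and the tuft factor POU2F3 (1.34) were not.

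Stem and progenitor genes were detected at a share close to that of protein-coding genes. Of 20 genes, 13 (65.0%) were detected, against 64.7% of protein-coding genes. In the upper band were 3 of them, and that band held 15.0% of all named genes. CD44, the hyaluronan receptor, had 2555 (percentile 91.8, with 69.9 for its other probe), and RNF43 (1862, percentile 89.3) and ZNRF3 (782, percentile 78.9, with 68.1 for its other probe), ubiquitin ligases that remove Wnt receptors, followed. With the mean of the probes 1 of the 20 genes was in the upper band. PROM1, which encodes CD133, was the dimmest detected (30.6). Other detected members, named after their values were seen, were MEX3A (163), EPHB2 (126), MSI1 (85.6), AXIN2 (69.7) and LRIG1 (69.3). The genes most often used to mark the crypt base stem cell, LGR5 (1.39), ASCL2 (1.40), OLFM4 (1.35) and SMOC2 (1.82), were not well above background, nor were NOTUM (1.46), TNFRSF19 (1.39) and HOPX (2.74).

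Markers of other tissues were mostly not detected. Of 11 endothelial genes 1 was detected, of 15 fibroblast and smooth muscle genes 4, of 16 blood and immune genes 5, of 11 liver and pancreas genes 2, of 13 genes of lung, breast, prostate, kidney and skin 5, and of 12 genes of striated muscle and heart 4. All of these shares are below the 59.8% of all named genes. Markers of the same lineage could fall on either side. The endothelial receptor KDR (1.65), the collagen gene COL3A1 (1.48), the T-cell receptor component CD3E (1.37) and the myogenic factor MYOD1 (1.39) were not well above background. The collagen gene COL1A1 (48.1, percentile 25.8), the smooth muscle actin gene ACTA2 (33.7, percentile 20.3) and CD3D (16.1, percentile 9.4), another T-cell receptor component, were detected, and these were named after their values were seen. Among mesenchymal genes 6 of 14 were detected. S100A4, a calcium-binding protein gene, was in the upper band (2292, percentile 91.1), while FN1 (2.15), CDH2 (3.83), SNAI2 (1.32) and ZEB2 (1.63) were not well above background. Related factors, named after their values were seen, were detected, namely SNAI1 (185, percentile 52.4), ZEB1 (23.7, percentile 15.1) and TWIST1 (18.4, percentile 11.4). VIM, the intermediate filament of mesenchymal cells, named after its value was seen, had 21.7 (percentile 13.8).

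Single genes of other lineages stood out against these lists. NKX2-5, a homeobox factor of the developing heart, had 4890 (percentile 95.6), and the cardiac troponin gene TNNI3 had 510 (percentile 72.2), while TNNT2 (5.66), MYH6 (1.62), MYH7 (2.24) and ACTC1 (1.49) were not well above background. TUBB3, the class III tubulin of neurons, had 4337 (percentile 94.9) in a list of neural genes where 7 of 14 were detected. CD79A, a component of the B-cell receptor, had 579 (percentile 74.4). Each of these bright values rests on 1 probe printed on 1 spot.

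Genes normally restricted to the germ line or the embryo showed a few high members. Of 16 germ line and cancer-testis genes, 5 were detected and 3 of them were in the upper band, namely the melanoma antigen genes MAGEA6 (3317, with 391 for its other probe), MAGEB2 (2598) and MAGEA12 (637). MAGEA4 was the dimmest detected (52.9). MAGEA1 (1.81), MAGEA10 (1.46), SSX1 (1.47), the meiotic gene SYCP3 (2.24) and the germ cell genes DAZL (1.40) and DDX4 (2.05) were not well above background. MAGEA genes are near-identical, and which of them the probes read was not tested. Of 16 pluripotency and oncofetal genes, 7 were detected. HMGA1, a chromatin architectural protein gene (12180, percentile 98.4), IGF2BP3, an RNA-binding protein gene of fetal tissue (3641, percentile 94.1), and HMGA2 (920, percentile 81.3) were in the upper band. NANOG (1.38), LIN28A (1.54), LIN28B (2.99) and AFP (1.54) were not well above background.

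**Figure D3:**
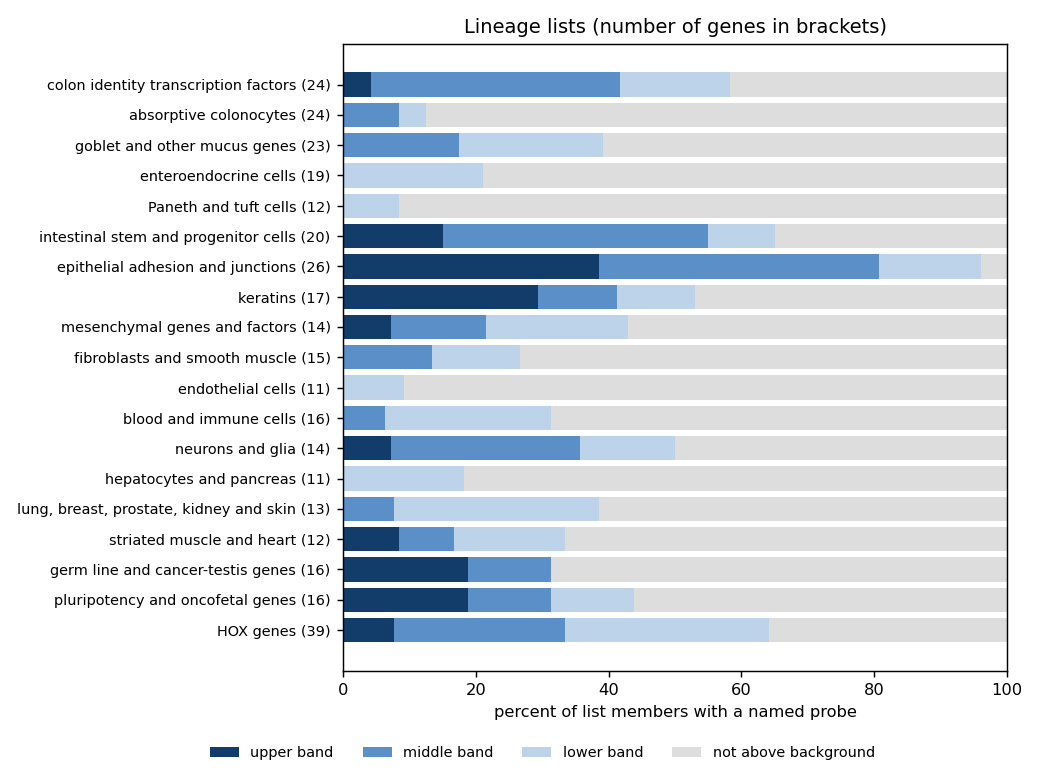
Stacked bars give, for each lineage list, the percentage of genes in the upper, middle and lower bands and not well above background, with the number of named genes in brackets. Epithelial junctions stand out with 25 of 26 genes detected, whereas 1 of 11 endothelial, 1 of 12 Paneth and tuft and 3 of 24 absorptive genes were detected.

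HOX genes encode the transcription factors that pattern the body axis, and the study silenced a non-coding transcript of the HOXA6-HOXA5 locus. HOXA5 was detected with an intensity of 84.9 (percentile 36.5) on its single probe and spot, which lies in the first 25 columns of the array. The paper also describes longer RNAs that overlap HOXA6 and HOXA5. Whether the probe reads HOXA5 mRNA, HOXA5 short RNA, these longer RNAs or several of them was not tested. The letters of the probe were not read. Of 39 HOX genes 25 (64.1%) were detected and 3 were in the upper band, namely HOXA9 (1630, percentile 87.9), HOXB6 (1147, percentile 84.0) and HOXC9 (755, percentile 78.4). The clusters differed in count, with 9 of 11 genes detected in the A cluster, 9 of 10 in the B cluster, 5 of 9 in the C cluster and 2 of 9 in the D cluster. Along the clusters, 3 of 8 anterior genes (groups 1 to 3), 13 of 15 central genes (groups 4 to 8) and 9 of 16 posterior genes (groups 9 to 13) were detected. HOXD13 was the dimmest detected (10.2), and HOXA2 (3.69), HOXB1 (1.45), HOXC12 (1.32) and HOXD10 (1.65) were among those not well above background.

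Detected shares varied widely between signaling lists. Over 432 named genes in 18 signaling lists, 285 (66.0%) were detected, close to the 64.7% of all protein-coding genes. The shares were higher for 19 of 21 genes of the RAS, RAF, MEK and ERK cascade, 21 of 23 of the PI3K, AKT and mTOR pathway and 24 of 27 Wnt receptors and pathway components. Nuclear receptors (23 of 41, 56.1%) and innate sensors (14 of 24, 58.3%) were close to the 59.8% of all named genes. Both were below the 64.7% of protein-coding genes. Lower shares were found for Wnt ligands and antagonists (9 of 29), FGF receptors and ligands (9 of 22) and chemokines and inflammatory cytokines (6 of 23).

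The EGF family binds receptor tyrosine kinases that feed RAS. Of its 15 genes 9 were detected, and the brightest were the ligands AREG (1542, percentile 87.3, both probes above background) and EREG (1227, percentile 84.9) and the receptor ERBB2 (470, percentile 70.8, SD 0.06 in log2 over 10 spots). NRG2 was the dimmest detected (7.55). The ligand EGF itself (1.38), BTC (4.14), EPGN (1.55), NRG3 (1.49) and NRG4 (3.52) and the receptor ERBB4 (1.79) were not well above background. EGFR, named after its value was seen, had 35.1 (percentile 20.9), and its other probes had 10.6 and 4.75, the latter not well above background. Among FGF genes the receptors FGFR3 (689, percentile 77.0), the decoy FGFRL1 (305) and FGFR2 (125) were the brightest. The other probe of FGFR3 had 9.81 and that of FGFR2 had 19.1. FGF2 was the dimmest detected (percentile 10.2), and 13 of 22 genes were not well above background. Among them were FGF1 (5.03), FGF7 (5.28), FGF10 (3.17) and the co-receptor KLB (1.48).

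Among other receptor tyrosine kinases, 22 of 33 were detected. MET, the receptor of hepatocyte growth factor, had 4114 (percentile 94.6), RYK, a Wnt co-receptor, had 1233 (percentile 84.9), and TYRO3 had 475. MUSK was the dimmest detected (8.73). KIT (1.49), FLT1 (1.54), FLT3 (1.48), ALK (1.52), PDGFRA (1.40) and ROS1 (2.68), kinases of blood, vessel and stromal cells, among others, were not well above background.

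In the RAS cascade the phosphatase PTPN11 (945, percentile 81.7, SD 0.06 in log2 over 9 spots) and the adaptors SHC1 (767) and GRB2 (749) were the brightest, and the exchange factor SOS1 was the dimmest detected (11.4). KSR1 (5.53) and SHC3 (4.70) were not well above background. In the PI3K pathway the translational repressor EIF4EBP1 (4154, percentile 94.7), the regulatory subunit PIK3R2 (3486, percentile 93.8) and AKT1 (1136, percentile 83.8) were the brightest. The leukocyte catalytic subunit PIK3CG (2.20) and PIK3R3 (1.41) were not well above background.

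The Wnt pathway stabilizes beta-catenin, which the kinases GSK3A and GSK3B mark for destruction. GSK3A (3162, percentile 93.3), the cytoplasmic relay DVL1 (2986, percentile 92.9) and CTNNB1, the beta-catenin gene (2393, percentile 91.4, SD 0.13 in log2 over 10 spots), were the brightest of 24 detected pathway genes. The other probe of DVL1 had 186 and that of CTNNB1 had 554. FZD3 was the dimmest detected (16.0). The Wnt transcription factor LEF1 (1.41) and the receptors FZD8 (1.39) and FZD10 (1.46) were not well above background. Of the ligands and antagonists only DKK1, a secreted inhibitor of Wnt co-receptors, was in the upper band (3010, percentile 93.0). WNT10B (159) and WNT3 (145) followed and WNT2B was the dimmest detected (8.03). WNT1 (1.44), WNT5A (1.64), WNT7A (1.41), the R-spondins RSPO1 (1.95), RSPO2 (1.48) and RSPO3 (2.27) and the inhibitors SFRP1 (1.72), SFRP2 (3.83), SFRP5 (1.56), DKK2 (1.38) and WIF1 (2.68) were not well above background.

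Of 32 genes of the TGF-beta and BMP pathways 22 were detected. GDF15, a stress-induced cytokine, had 25355 (percentile 99.4), followed by BMP4 (876, percentile 80.6) and the signal transducer SMAD3 (834, percentile 79.9). The receptor TGFBR1 was the dimmest detected (7.78), and the activin receptor ACVR1B (3.03), BMPR1B (1.52), INHBA (1.99), GREM1 (1.61) and TGFB2 (1.61) were not well above background. In the Notch pathway 18 of 24 genes were detected. The repressors HES4 (7599, percentile 97.4) and HES6 (4767, percentile 95.4, all 4 probes above background) and the DNA-binding factor RBPJ (1085, percentile 83.4) were the brightest and NOTCH4 was the dimmest detected (12.4). HES1, the common Notch target in the crypt, was not well above background (7.27), nor were HES5 (3.23), HEY1 (2.29) and the ligand DLL4 (1.51).

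The Hedgehog list had 7 of 14 genes detected and none in the upper band. Over all named genes these shares were 59.8% and 15.0%, and whether so short a list differs from them was not tested. The transducer SMO had 385 (percentile 67.3), GLI1 had 47.4 and SUFU had 45.7, and PTCH1 (5.25), HHIP (2.41) and SHH (4.44) were not well above background. Of 18 Hippo pathway genes 15 were detected, with the tumor suppressor NF2 (1916, percentile 89.7), the factor TEAD1 (644) and the kinase STK3 (606) the brightest. The other probe of NF2 had 61.4. AMOTL1 was the dimmest detected (35.8). YAP targets were split, as CCN2 (6.46) and ANKRD1 (1.39) were not well above background, while AMOTL2 (549, percentile 73.6) and CCN1 (320, percentile 64.0), named after their values were seen, were in the middle band. The kinase LATS1 was not well above background (4.32), and LATS2, also named after its value was seen, had 51.1.

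Immune signaling was read in lists of receptors, ligands, sensors and death receptors. Of 33 cytokine receptor and JAK-STAT genes 27 were detected, with the interleukin receptors IL4R (885, on 1 of 3 probes) and IL13RA1 (704) and the factor STAT6 (667) the brightest, and IL6R the dimmest detected (10.7). IL6 (1.34), IL2RG (1.89) and STAT5A (1.38) were not well above background. Among chemokines and inflammatory cytokines CXCL16 (200), IL18 (116) and CXCL1 (47.5) were the brightest, CXCL5 was the dimmest detected (percentile 7.6), and 17 of 23 genes were not well above background, including CXCL8 (2.24), TNF (1.60), IL1A (1.49), IL1B (1.69), CCL2 (1.53), CXCL10 (1.80) and CD274 (3.26). Of 24 innate sensors 14 were detected. The adaptor TICAM1 (1734, percentile 88.7), the RNA-activated kinase EIF2AK2 (836) and the adaptor MAVS (641, all 7 probes above background) were in the upper band. The other probe of TICAM1 had 42.5 and that of EIF2AK2 had 35.2. TLR6 was the dimmest detected (7.60). CGAS (2.69), AIM2 (1.47), PYCARD (1.46), NLRP3 (1.76) and TLR4 (1.49) were not well above background. Of 14 death receptor genes 10 were detected, led by TNFRSF12A (3275, percentile 93.4), the TRAIL receptor TNFRSF10B (2280, percentile 91.0) and TNFRSF21 (1839, percentile 89.2). The ligands FASLG (1.67) and TNFSF10 (1.69) were not well above background.

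Nuclear receptors, which are transcription factors switched by lipids and hormones, were detected in 23 of 41 cases. The orphan receptors NR2F6 (6392, percentile 96.8) and NR2F1 (2146, percentile 90.5) and ESRRA (1583, percentile 87.6), a regulator of mitochondrial genes, were the brightest, and RORB was the dimmest detected (10.1). The sex steroid receptors ESR1 (1.99), ESR2 (2.29) and PGR (1.66), the bile acid receptor NR1H4 (1.68), the xenobiotic receptor NR1I2 (1.55) and RARB (1.47) were not well above background. Of 19 integrin genes 11 were detected. ITGB4, the laminin-binding subunit of hemidesmosomes, had 2058 (percentile 90.2), ITGAV had 441 and ITGA7 had 396, ITGA9 was the dimmest detected (10.9), and ITGA2 (4.99), ITGA4 (1.58), ITGB2 (2.02), ITGB3 (1.54) and ITGB6 (2.36) were not well above background.

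Of 20 genes of the p53 pathway and cell cycle inhibitors 19 (95.0%) were detected. FDXR, a mitochondrial reductase that p53 induces, had 5110 (percentile 95.8), CDKN2A, a locus of cell cycle inhibitors, had 2772 (percentile 92.5, with 515 for its other probe), and BBC3, which encodes the death protein PUMA, had 1072 (percentile 83.2). ZMAT3 was the dimmest detected (7.18, SD 0.93 in log2 over 10 spots), and CDKN2B was not well above background (4.76). All 12 genes of a list of mismatch repair and polymerase proofreading were detected. MGMT, also in that list, acts in neither process. PCNA, the replication clamp, had 3267 (percentile 93.4), MSH6 had 1482 (percentile 86.9) and POLD1 had 822 (percentile 79.7), while MGMT had 352, PMS2 309, EXO1 298, PMS1 139, POLE 56.8 and MLH3 46.6. MSH3, known to be defective in this line, was the dimmest (19.6, SD 0.37 in log2 over 10 spots). RNA levels do not show whether the proteins were made.

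Metabolic genes were detected more often than genes at large. Over 356 named genes in 18 metabolic lists, 277 (77.8%) were detected, against 64.7% of protein-coding genes, and 142 were in the upper band. In glycolysis 21 of 27 genes were detected and 13 were in the upper band, with a median of 542 over all 27. GAPDH, which oxidizes glyceraldehyde phosphate, had 29000 (percentile 99.6, SD 0.06 in log2 over 10 spots), the lactate dehydrogenase gene LDHB had 25525 (percentile 99.4, with 870 for its other probe), and the lactate exporter SLC16A3 had 18876 (percentile 99.0). Of 12 glucose transporters 4 were detected. SLC2A1, the main glucose transporter of growing cells, had 826 (percentile 79.8), SLC2A8 had 721 and SLC2A6 had 407, while SLC5A2 was the dimmest detected (11.8). SLC2A2 (1.32), SLC2A3 (4.95), SLC2A4 (6.22), SLC2A5 (5.53) and SLC5A1 (3.78) were not well above background.

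Enzymes of glucose synthesis were detected in part. PCK1 (2.28), FBP1 (2.53), FBP2 (1.92) and G6PC1 (2.78) were not well above background, while 11 of 17 genes of gluconeogenesis and glycogen were detected, led by the glycogen genes PGM1 (1423, percentile 86.5), PYGL (1355, percentile 85.9) and PYGB (1163, percentile 84.2). PCK2, the mitochondrial form, was the dimmest detected (65.6, with 1.43 for its other probe), and pyruvate carboxylase PC (156, percentile 48.8) and G6PC3 (142, percentile 46.8), named after their values were seen, were in the middle band. Of 8 pentose phosphate genes 7 were detected and 5 were in the upper band, with a median of 1860. TKT had 11662 (percentile 98.3), TALDO1 had 4834 (percentile 95.5), RPIA had 2724, PGLS 2069, PGD 1655 and RPE 146, and TKTL1 was not well above background (1.45). In pyruvate dehydrogenase and the TCA cycle 29 of 30 genes were detected and 15 were in the upper band. MDH1 (9159, percentile 97.8), CS (6622, percentile 96.9) and MDH2 (3925, percentile 94.4) were the brightest. OGDH was the dimmest detected (8.56, on 1 probe) and the testis form PDHA2 was not well above background (1.48).

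Many steps have tissue-specific isozymes, and 29 steps with at least 2 named isozymes were read. In 14 of them exactly 1 of the named isozymes was detected, in 2 several but not all, in 12 all, and in fructose bisphosphatase none. Aldolase counts among the 14 through ALDOC, as ALDOA had no named probe and was not read. In other steps of the 14 the detected one was PGK1 (9941) and not PGK2 (1.69), PGAM1 (10245) and not PGAM2 (1.86), and ARG2 (58.1) and not ARG1 (1.49). The undetected partners are forms of testis, muscle and liver. For cytochrome oxidase the common subunits COX4I1 (6322), COX6A1 (22522) and COX7A2 (15520) were in the upper band, and the hypoxic or muscle forms COX4I2 (3.57), COX6A2 (1.34) and COX7A1 (1.37) were not well above background. In the whole list of tissue-specific respiratory chain isoforms, 12 of 18 named genes were detected and 10 were in the upper band. Tissue-specific forms were among the detected genes, as COX6B2 had 1609 (with 1.75 for its other probe), SLC25A4 had 938 and UCP3 had 373. These 3 were named after their values were seen. Where several forms were detected, PKM had 7776 and the liver form PKLR 8.52, ENO1 had 11590 and ENO2 334, SHMT2 had 5021 and SHMT1 83.7, and OGDHL had 210 and OGDH 8.56. These pairs compare different probes, so a gap below the spread of probes within a gene carries no order. The gap between CPT1C (282) and CPT1A (278) is of that kind, and so is that between PFKP (8088, with 2446 for its other probe) and PFKM (2237). OGDHL and OGDH were read by 1 probe each, so the spread of probes within either gene is not known. Whether the OGDH probe reads all OGDH transcripts was not tested.

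**Figure D4:**
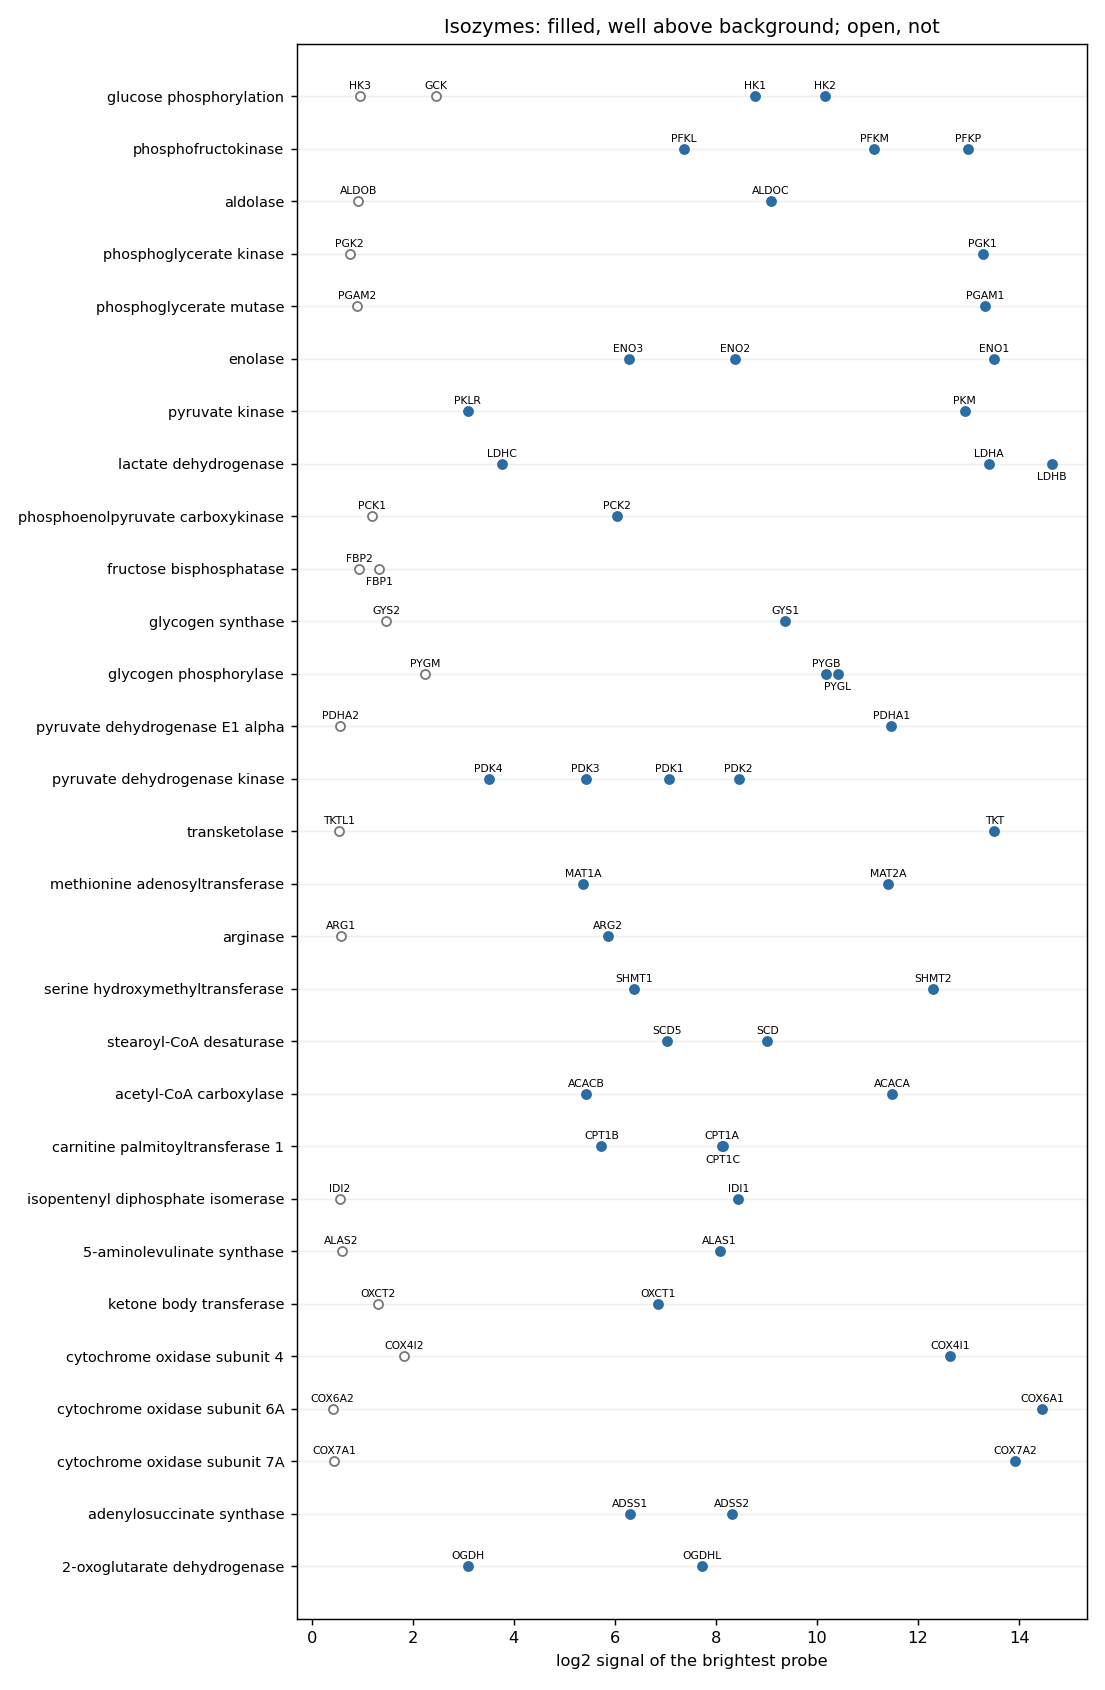
Each point is the log2 intensity of the brightest probe of an isozyme on the control siRNA array, 1 row per enzyme step, filled where the probe was well above background and open where it was not. In 14 of the 29 steps exactly 1 point is filled, and in fructose bisphosphatase both points are open. ALDOA had no named probe and has no point in the aldolase row.

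Genes that make building blocks were among the highest lists. Of 20 genes of serine, glycine and one-carbon metabolism 19 were detected and 10 were in the upper band, led by thymidylate synthase TYMS (6378, percentile 96.8), GCSH (5109, percentile 95.8) and SHMT2 (percentile 95.7). MTHFD2L was the dimmest detected (7.74) and ALDH1L2 was not well above background (6.52). In nucleotide synthesis 21 of 22 genes were detected and 15 were in the upper band, with a median of 898. Thymidine kinase TK1 had 31634 (percentile 99.6), IMPDH1 had 8278 (percentile 97.6) and IMPDH2 had 4437 (percentile 95.0), DCK was the dimmest detected (22.7), and the mitochondrial kinase TK2 was not well above background (1.85). All 9 polyamine genes were detected, with OAZ1, which encodes an inhibitor of the pathway, at 14495, SAT1 at 8474, ornithine decarboxylase ODC1 at 8408, SMS at 4276, AMD1 at 1881, SRM at 1640, AZIN1 at 535, SMOX at 372 and PAOX at 27.4.

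In glutamine, aspartate and proline metabolism 20 of 25 genes were detected and 10 were in the upper band. PYCR1, the last step of proline synthesis, had 15431 (percentile 98.8, with 108 for its other probe). GOT2 had 9525 (percentile 97.9) and ASNS, asparagine synthetase, had 4653 (percentile 95.2). PRODH, which degrades proline, was the dimmest detected (40.8), and the urea cycle enzymes OTC (5.56) and ARG1 (1.49) and GLS2 (1.55), GPT (1.69) and PRODH2 (1.62) were not well above background. In methionine, cysteine and glutathione metabolism 17 of 22 genes were detected, led by GSTP1, GPX1 (15669, percentile 98.8) and GPX4 (4348, percentile 94.9), and GSTM1 was the dimmest detected (19.8). CBS, which forms cystathionine from homocysteine, was not well above background (5.72), nor were GPX2 (5.07), GPX3 (4.74), BHMT (4.05) and GSTM3 (1.54).

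In cholesterol synthesis 16 of 22 genes were in the upper band, and 21 of 22 were detected with a median of 821 over all members. DHCR7 (4629, percentile 95.2), FDPS (3808, percentile 94.3) and FDFT1 (2762, percentile 92.4) were the brightest, SC5D was the dimmest detected (13.8) and IDI2 was not well above background (1.48). In fatty acid synthesis and desaturation 18 of 20 genes were detected. FASN, fatty acid synthase, had 5479 (percentile 96.2), the transcription factor SREBF1 had 4384 (percentile 94.9) and ACACA had 2880 (percentile 92.7). ACACB was the dimmest detected (43.2), and ELOVL2 (1.55) and ELOVL4 (1.63), which extend very long fatty acids, were not well above background. In fatty acid oxidation and ketone bodies 18 of 23 genes were detected, with ACADVL (2605), ECHS1 (2117) and HADHB (1940) the brightest and ACADS the dimmest detected (11.4). ACADL (1.36), EHHADH (1.98), OXCT2 (2.48) and the coactivator PPARGC1A (1.60) were not well above background. Of 15 lipid droplet and lipoprotein genes 9 were detected. FABP5 had 6021 (percentile 96.6), PNPLA2 had 845 and LIPE had 600, DGAT2 was the dimmest detected (8.48), and PLIN1 (2.70), FABP4 (1.37), LPL (1.52), CD36 (2.53), CIDEA (1.44) and MTTP (1.55) were not well above background.

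Of 27 genes of drug metabolism 15 (55.6%) were detected and 3 were in the upper band. The detected shares were 59.8% for all named genes and 64.7% for protein-coding genes. CYP2W1, a cytochrome P450 known from fetal gut and colon tumors, had 25883 (percentile 99.4) on 1 probe and 1 spot, followed by UMPS (1661, percentile 88.1), which activates fluorouracil, and the exporter ABCC2 (813, percentile 79.5). CYP2D6 was the dimmest detected (9.05). The liver enzymes CYP3A4 (1.87), CYP3A5 (3.54), CYP2C19 (1.40), CYP2E1 (2.46) and UGT2B7 (1.41) and the exporters ABCB1 (7.34, SD 0.25 in log2 over 9 spots) and ABCG2 (5.50) were not well above background. Of 18 aldehyde and alcohol dehydrogenases 10 were detected. ALDH1A3, which makes retinoic acid, had 3838 (percentile 94.3), ALDH3A2 had 1653 (percentile 88.1), ALDH7A1 had 657, and AKR1C3 was the dimmest detected (20.1). ALDH1A1 (4.01), ALDH1A2 (1.43), ADH1A (1.45), ADH1C (2.39) and AKR1C1 (1.54) were not well above background.

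In iron, haem and copper handling 18 of 23 genes were detected and 9 were in the upper band. The metal-binding metallothioneins MT2A (26270, percentile 99.5) and MT1E (15240, percentile 98.7) and the ferritin chain FTH1 (14074, percentile 98.6, all 4 probes above background) were the brightest, and ATP7A was the dimmest detected (48.9). The iron exporter SLC40A1 (1.51), the hormone HAMP (5.24), ALAS2 (1.51), CP (2.81) and MT1G (2.17) were not well above background. Metallothionein genes are closely similar, and how far a probe reads several of them was not tested.

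**Figure D5:**
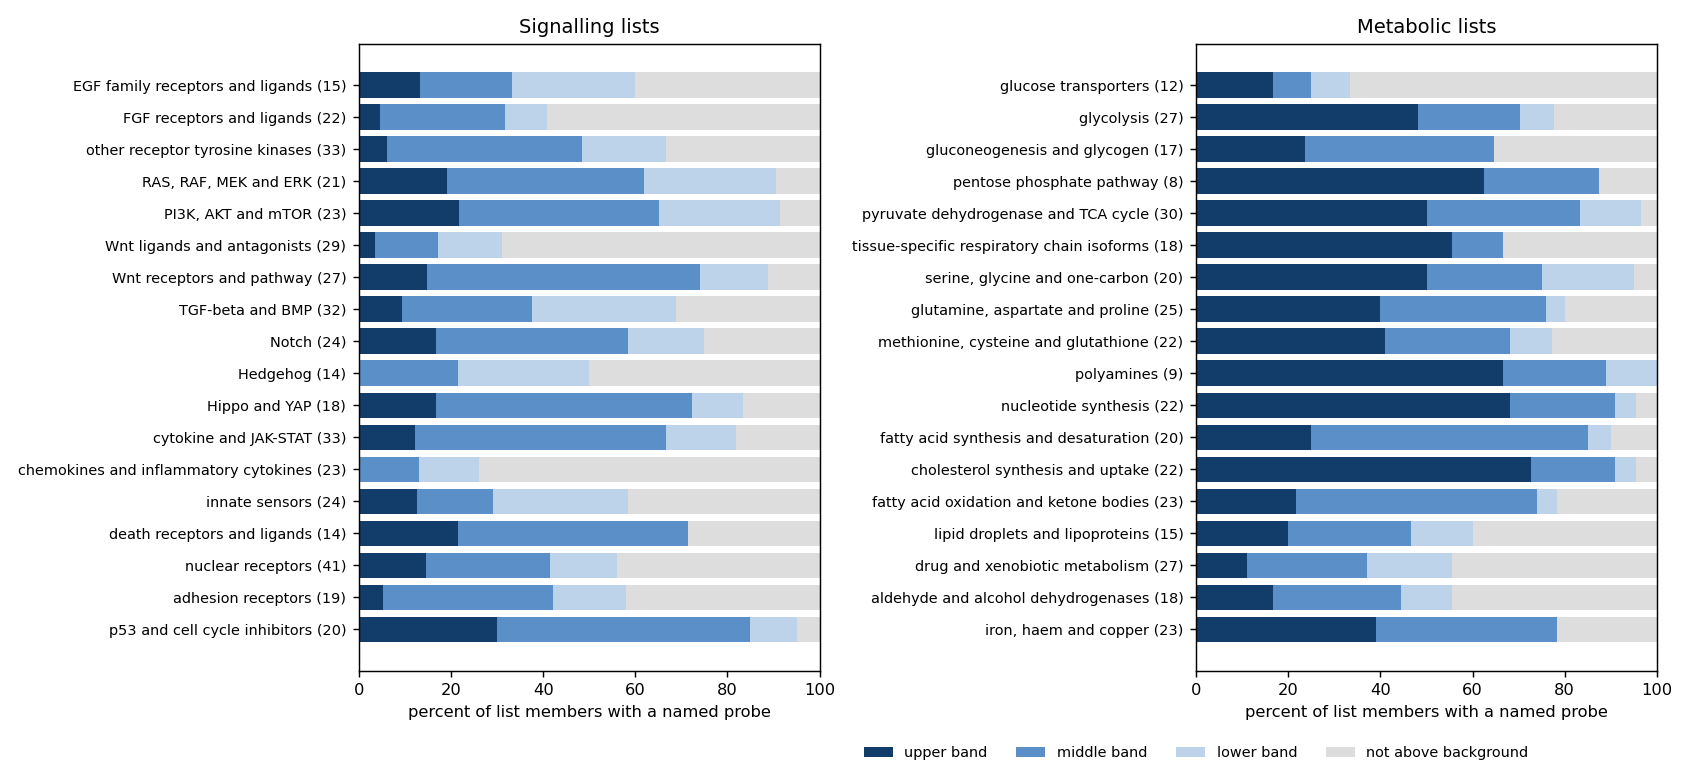
Stacked bars give, for each signaling list (left) and metabolic list (right), the percentage of genes in each band of intensity on the control siRNA array, with the number of named genes in brackets. Cholesterol synthesis (16 of 22) and nucleotide synthesis (15 of 22) have the largest shares of genes in the upper band among the metabolic lists, and chemokines (6 of 23) and Wnt ligands and antagonists (9 of 29) have few detected genes.

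Long non-coding RNAs chosen for their known roles were high, with 21 of 23 detected and 13 in the upper band, whereas 536 of all 2248 named long non-coding RNAs (23.8%) were detected. GAS5, which hosts small nucleolar RNAs, had 8498 (percentile 97.6), ZFAS1 had 7088 (percentile 97.2) and SNHG6 had 5362 (percentile 96.1). HOTAIR, a transcript of the HOXC cluster, was the dimmest detected (20.5, on 2 of 8 probes), and HOTTIP (2.16), of the HOXA cluster, and HULC (1.37), a liver transcript, were not well above background.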

How the data were processed

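Total RNA of HCT116 cells treated with control siRNA was measured on 1 Agilent one-color array. The authors scanned it, and the deposited intensity of each spot came from Agilent Feature Extraction 11.5.1.1 (protocol GE1_1105_Oct12), after subtraction of background and without scaling across arrays. A deposited table of log2 values, in which each probe is centred over the arrays so that it holds no level within an array, was not used. The siRNA #7 and siRNA #8 arrays were not analysed here.

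From the deposited intensity of 50599 gene probes, 409 outlier-flagged spots were dropped, replicate spots of each probe were averaged, and a probe was called well above background where that flag was set on at least 50% of its spots. Transcript accessions were matched without versions to RefSeq (GRCh38.p14), while the design (039494) was annotated on hg19. This named 30002 probes, 20595 had no name, and 24 of the 1183 genes listed had no named probe. The brightest probe above background was read for each gene. Some list members counted in the totals are not reported here by name. Intensity depends on probe sequence as well as RNA amount, and amplification favors the 3′ end. Labeling efficiency and cross-hybridization were not tested.

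On the array, 3 of 10 quality metrics of the scanner software were out of range, and the spike-in curve had a slope of 0.881 with an R2 of 0.978. In the first 25 columns 42.7% of spots were well above background, against 44.7% elsewhere. Having 1 array limits the precision.

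Python 3.11.15, numpy 2.4.6, pandas 2.3.3, matplotlib 3.10.9 and R 4.3.3 with limma 3.58.1 were used. The steps were tested on simulated data. Members and lists were chosen with earlier results of these data known. Named were the 20 brightest genes, HOXA5, the defining markers of colon epithelium and, for each list, the 3 brightest, the dimmest detected and genes not well above background (any member in lists of at most 12 genes and among isozymes). Genes outside this rule carry a remark that their values had been seen. Alternatives were normexp background correction with an offset of 50, the mean over probes in place of the brightest, outlier spots kept, the first 25 columns left out, the flag on every spot, detection only where at least 50% of the probes of a gene were above background, and the laxer flag for a positive and significant signal. Normexp was run on median spot signals and local background.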

Additional observations from a re-analysis of the deposited data

How the results depend on the processing

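The number of detected genes stayed within 1.5 times of 12929 under all 5 alternatives, and 37 of the 57 list counts did so under all 5. Keeping outlier spots, leaving out the first 25 columns, requiring the flag on every spot or in at least 50% of the probes of a gene moved no list count past 1.5 times. Leaving out these columns left 1267 genes without a probe. The laxer flag, a positive and significant signal, called 16964 genes (78.5%) and 36.6% of odorant receptors. With it the detected members rose to 13 for absorptive colonocytes, 15 for goblet and mucus genes, 9 for enteroendocrine, 6 for Paneth and tuft, 15 for keratins, 8 for fibroblasts and smooth muscle, 5 for endothelial cells, 12 for blood and immune cells, 7 for hepatocytes and pancreas, 9 for lung, breast, prostate, kidney and skin, 8 for muscle and heart, 8 for germ line genes, 11 for pluripotency and oncofetal genes, 20 for FGF, 19 for Wnt ligands and antagonists, 11 for Hedgehog, 15 for chemokines, 9 for glucose transporters, 17 for gluconeogenesis and glycogen and 23 for drug metabolism. A gene not well above background may thus still carry a weak signal. The mean of the probes moved the upper-band count of 8 lists past 1.5 times, to 0 for intestinal transcription factors and FGF, to 1 for absorptive colonocytes, stem and progenitor, blood and immune, innate sensor and glucose transporter genes and to 2 for muscle and heart. Leaving out the first columns moved that of 3, to 6 for junctions, 3 for fatty acid synthesis and 1 for blood and immune genes. Normexp and keeping outlier spots moved none. With the mean in place of the brightest probe, 800 of the 3157 genes with several detected probes changed band, by a median of 8.4 percentiles over all of them. No paired analysis was possible because each group has 1 array and no arrays were compared.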

Other observations

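Other gene families, chosen after their values were seen, covered the whole range of detection. Receptors of the sensory epithelia were nearly all not well above background, with 17 of 374 odorant receptors (4.55%) and 1 of 25 type 2 taste receptors detected. Of 51 clustered protocadherins, adhesion proteins of neurons, 4 were detected, as were 2 of 32 beta-defensins, 23 of 90 keratin-associated proteins of hair and 30 of 103 potassium channel subunits. Household complexes were at the other end, with 79 of 82 mitochondrial ribosomal proteins and 49 of 54 proteasome genes detected, of which 67 and 37 were in the upper band. Zinc finger ZNF genes were detected in 344 of 529 cases (65.0%), and 21 of them were in the upper band.

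Families of detoxifying and surface proteins were also counted. Of 60 cytochrome P450 genes 20 were detected and 2 were in the upper band, and 1 of 13 UDP-glucuronosyltransferases was detected. Of 24 claudins 8 were detected, and of 12 CEACAM genes 2. Of 10 fucosyltransferases 5 were detected. FUT6, which builds Lewis antigens, had an intensity of 30270 on 1 of 2 probes, and UNCX, a homeobox factor of somites and neurons, had 28473. Both were chosen after their values were seen.

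Small RNAs differed by class. H/ACA snoRNAs were detected in 93 of 100 cases and small Cajal body RNAs in 20 of 22, but C/D box snoRNAs in 95 of 193. Most of these RNAs lie in introns of host genes, and whether the probes read the mature RNA or the host transcript was not tested. Among long intergenic RNAs named LINC, 148 of 891 were detected.

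The 20595 probes without a gene name hold further signal. Of these, 3539 (17.2%) were well above background, against 56.4% of named probes, and 451 had an intensity at or above the lower limit of the upper band.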
